A study of Homo sapiens with 24 samples.

Results

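Genomic positions that carried a chromatin immunoprecipitation (ChIP-seq) peak in at least 2 of the 4 wild-type peak lists, and in none of the 4 lists from cells expressing tagged METTL7A, are described here. Peaks of all 8 lists that shared 1 bp or more were joined into 11138 positions, of which 10709 lay outside the regions that the rule leaves out (7:54-57 Mb around EGFR, 12:55-70 Mb, 6:11-12 Mb and mitochondrial DNA). Of these, 586 were recurrent in wild-type cells and 529 of the 586 had no METTL7A peak. These 529 member positions hold 1127 wild-type peaks, with 266 from the parental IgG list, 162 from the parental MYC-tag list, 374 from the resistant IgG list and 325 from the resistant MYC-tag list. Members were chosen by the presence and absence of peaks across the 8 lists, so both are given as a description and carry no test.

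The cells were HCC827, an established human lung adenocarcinoma line that depends on mutant EGFR. Parental cells were labelled untreated, and the osimertinib-resistant derivative, HCC827-OR, was kept in 1 µM osimertinib, an inhibitor of mutant EGFR. In each state the wild-type cells carried no tag, and the METTL7A cells overexpressed METTL7A joined to a MYC tag and a FLAG tag. Each chromatin was immunoprecipitated once with control IgG and once with anti-MYC-tag, and 2 replicates labelled as biological stand behind each of the 8 lists (16 samples), while 8 input samples in 4 groups have no list among those used. The sources used here do not give the promoter of the transgene or say whether a METTL7A line came from 1 clone.

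As background, the MYC tag copies a stretch of the human MYC protein, a transcription factor that pairs with MAX and is known to bind CACGTG sequences near gene starts. An antibody to the tag can therefore also meet MYC itself in cells without a tag, whereas an isotype IgG has no intended target. METTL7A, listed today as TMT1A, is a membrane-associated methyltransferase-like protein.

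Each deposited list joins the replicates of a group through their irreproducible discovery rate (IDR), a measure of how alike 2 replicates rank a peak. Peak height below is the lower of the 2 replicates' −log10 p-values from the peak caller, as the authors deposited it, and "reproducible" means a global IDR of 0.05 or less. One list stands for each group, so no value below has a replicate error of its own, and the scale of the heights differs between lists, whose medians ran from 3.70 to 4.52 in wild-type cells. Antibodies and cell states are therefore set side by side by percentile, the rank of its height among all peaks of its own list on a scale to 100. Lists held 1005 to 2767 peaks in wild-type cells, 2271 and 3165 in METTL7A MYC-tag, and only 70 and 96 in METTL7A IgG, whose lack of a peak says little. The depth of the libraries is unknown from the files. A missing peak means that none was matched in both replicates, not that no signal was present.

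The naming rule (recurrence, height or reproducibility) chose 30 member positions, of which 29 are described. It ranks positions by raw height pooled over lists and so favours lists with higher peaks, such as resistant IgG, where 44.7% of member peaks reached 5 against 22.8% in parental MYC-tag. Of the 29, 18 lay at the start of a gene, 4 inside a gene and 1 across a small gene, and 6 were left without a name. Genes were placed from general knowledge of GRCh37, since no annotation of that build was used here, so these are background labels and the 18 of 29 carries no comparison. RefSeq's table of promoters (GRCh38.p14) gave no match by symbol for JPH1, ASPH, ADCY8, RDH10 and ATP11B, and matched the other 13 of the 18 gene starts. The 250 bases before the most upstream listed start are shown for some of these genes, to show their base composition. One was found in all 4 wild-type lists (BCL2L11), the others in 3 lists (PIK3R1, CAV1, SYDE2, SMAD5 and BTG3). LEMD2 and XKR8, also matched and found in 3 lists, are not printed. These genes were picked after the values were seen. They come from the reference and not from the peaks, whose own bases in GRCh37 were not read, and the listed start may differ from the one at the peak. Capitals mark GGGCGG or its reverse complement CCGCCC, known as the GC box.
BCL2L11, chr2:111120664-111120913 on the + strand: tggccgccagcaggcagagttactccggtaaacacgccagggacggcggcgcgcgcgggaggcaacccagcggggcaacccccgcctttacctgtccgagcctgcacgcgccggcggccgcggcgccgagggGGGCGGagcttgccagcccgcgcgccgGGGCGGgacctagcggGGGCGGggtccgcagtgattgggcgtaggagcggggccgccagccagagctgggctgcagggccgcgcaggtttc
PIK3R1, chr5:68215506-68215755 on the + strand: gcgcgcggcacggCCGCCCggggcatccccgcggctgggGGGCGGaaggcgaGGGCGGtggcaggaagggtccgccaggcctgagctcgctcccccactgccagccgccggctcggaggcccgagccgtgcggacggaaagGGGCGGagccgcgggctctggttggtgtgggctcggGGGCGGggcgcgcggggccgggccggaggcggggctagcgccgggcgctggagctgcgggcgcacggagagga
CAV1, chr7:116524759-116525008 on the + strand: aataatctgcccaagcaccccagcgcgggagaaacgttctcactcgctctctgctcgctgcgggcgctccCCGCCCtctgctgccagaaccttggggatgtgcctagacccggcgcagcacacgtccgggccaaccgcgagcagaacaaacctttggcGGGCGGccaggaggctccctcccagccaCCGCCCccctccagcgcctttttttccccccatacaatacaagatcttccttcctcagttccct
BTG3, chr21:17612902-17613151 on the - strand: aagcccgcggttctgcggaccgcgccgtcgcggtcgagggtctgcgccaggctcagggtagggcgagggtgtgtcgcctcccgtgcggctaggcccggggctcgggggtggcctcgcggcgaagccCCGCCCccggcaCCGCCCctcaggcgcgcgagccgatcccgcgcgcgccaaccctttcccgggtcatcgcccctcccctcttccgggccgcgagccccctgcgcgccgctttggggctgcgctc
SYDE2, chr1:85201017-85201266 on the - strand: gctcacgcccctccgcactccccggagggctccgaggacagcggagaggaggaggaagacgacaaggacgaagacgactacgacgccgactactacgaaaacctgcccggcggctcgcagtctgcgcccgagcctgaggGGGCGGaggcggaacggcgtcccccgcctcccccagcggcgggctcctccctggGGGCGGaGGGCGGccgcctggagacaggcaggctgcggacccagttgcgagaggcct
SMAD5, chr5:136132595-136132844 on the + strand: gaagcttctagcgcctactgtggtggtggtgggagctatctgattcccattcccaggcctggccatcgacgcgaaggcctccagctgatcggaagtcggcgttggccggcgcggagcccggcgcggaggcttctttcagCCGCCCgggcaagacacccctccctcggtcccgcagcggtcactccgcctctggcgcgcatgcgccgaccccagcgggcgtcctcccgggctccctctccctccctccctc

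The share of G and C in the printed windows was 76.8% in BCL2L11, 81.6% in PIK3R1, 63.6% in CAV1, 78.4% in BTG3, 72.8% in SYDE2 and 70.4% in SMAD5. For the matched genes not printed, it was 43.6% in LEMD2, 52.8% in MDFIC, 71.6% in XKR8, 74.4% in GXYLT1, 74.8% in CACHD1, 77.2% in COCH and 80.8% in PRKACB. Every printed window holds GGGCGG or its reverse complement, while those of LEMD2, CACHD1 and COCH hold neither. The table lists 23 windows for the 13 matched genes, and over these the median was 63.6% (30.4% to 81.6%), against 58% over all 35116 windows. CG pairs had a median of 18 in the 23 windows and 11 in all. GGGCGG, read on both strands, was in 14 of the 23 (60.9%) and in 42.6% of all windows. CCAAT, also read on both strands, was in 4 (17.4%) and in 32.0% of all. CACGTG, which reads the same on both strands, was in 0 and in 6.34% of all.

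The size of these differences depended on the windows taken. That comparison over all listed windows was made first. Taking only the most upstream window of each gene was tried after seeing it, and the differences were then larger. The median G and C share was 74.4% in 13 windows against 57.6% over 27305 genes, CG pairs had medians of 29 and 10, GGGCGG was in 10 (76.9%) against 42.2%, CCAAT in 1 (7.69%) against 33.0% and CACGTG in 0 against 6.46%. Each motif was counted separately, with overlapping matches allowed. The genes were matched from positions chosen for height or recurrence, so the shares describe them only and nothing is drawn from a motif that was absent.

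The first question was how unusual it is for a recurrent wild-type position to lack a METTL7A peak. Outside the regions left out, 529 of 586 positions in 2 or more wild-type lists were missing from the METTL7A lists (90.3%, exact 95% interval 87.6 to 92.5). The same held for 5423 of 5824 positions in a single wild-type list (93.1%, 92.4 to 93.8). Over all 6410 wild-type positions, the 586 among them, the share was 92.9%, just above the interval of the recurrent positions. The recurrent share thus lies near the background, slightly below it, and absence from METTL7A lists does not set the members apart. Intervals cover counting error only, and neighbouring positions are not independent.

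By number of lists the intervals overlapped. Positions in exactly 2 wild-type lists were missing in 468 of 518 cases (90.3%), those in 3 lists in 57 of 63 (90.5%, 80.4 to 96.4) and those in 4 lists in 4 of 5 (80%, 28.4 to 99.5). Positions in 3 or more lists together gave 89.7%.

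By list they did not all overlap. The share was 94.6% of positions in resistant IgG (93.6 to 95.4), above the intervals of parental IgG (91.1%, 89.4 to 92.6), parental MYC-tag (90.5%, 88.3 to 92.4) and resistant MYC-tag (92.3%, 91.2 to 93.3). Of positions in both MYC-tag lists 80.6% were missing (68.6 to 89.6), an interval that lies below the 92.9% of all wild-type positions. It was 89.5% in both IgG lists (83.5 to 93.9), 93.2% in both parental lists (85.7 to 97.5) and 92.3% in both resistant lists (88.2 to 95.3). Lists share positions, and the differences were not tested.

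The share was similar over height. When the 586 positions were split into 4 groups by the highest within-list rank of their wild-type peaks, 89.8%, 91.6%, 91.6% and 87.9% were missing, from the lowest group to the highest. On the raw scale pooled over lists, at a highest wild-type height of at least 4, 5 and 7 the shares were 90.6%, 90.9% and 88.1%. At a highest wild-type height of 9 or more, 15 of 18 were missing (83.3%, 58.6 to 96.4).

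**Figure D1:**
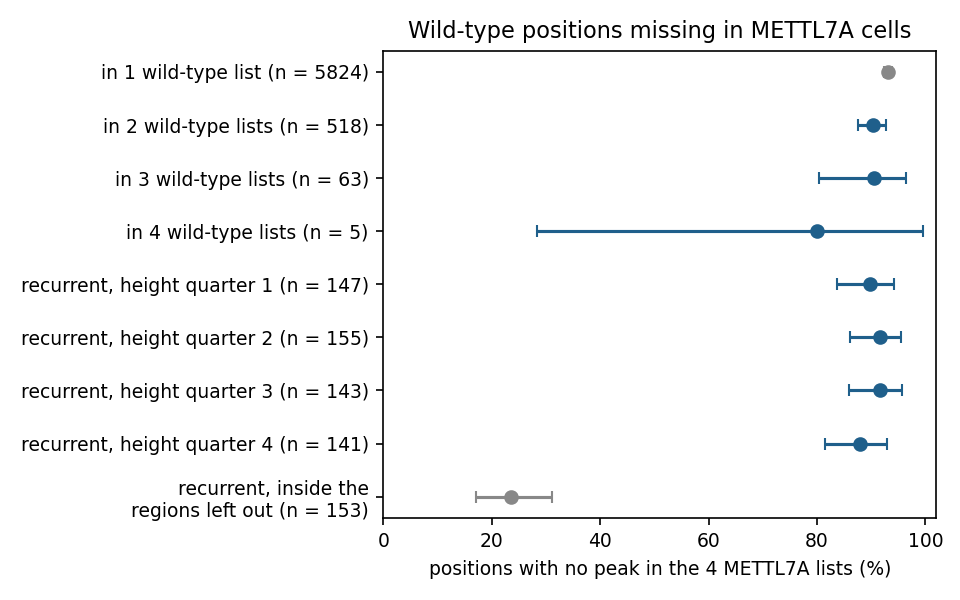
The x axis gives the percentage of wild-type positions with no peak in any of the 4 METTL7A lists, with exact 95% binomial intervals, and the rows give positions by number of wild-type lists and recurrent positions in 4 groups by within-list height (1 lowest). Outside the regions left out the points lie between 80% and 93.1%, and the 153 recurrent positions inside those regions lie at 23.5%.

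Within the regions left out the picture differed. There 36 of 153 recurrent wild-type positions lacked a METTL7A peak (23.5%, 17.1 to 31.1). The nuclear part of those regions spans 19 Mb and held 315 METTL7A positions, or 16.6 per Mb. Elsewhere there were 4757 METTL7A positions in the rest of the genome. The part of this density in the lower share was not tested.

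The reverse comparison starts from the METTL7A side. Of 270 positions in both METTL7A MYC-tag lists, 191 had no peak in any wild-type list (70.7%, 64.9 to 76.1). Restricted to MYC-tag lists on both sides, 220 of these 270 had no wild-type MYC-tag peak (81.5%, 76.3 to 85.9). Of the 62 positions in both wild-type MYC-tag lists, 50 had no METTL7A MYC-tag peak (80.6%, 68.6 to 89.6). Of the positions in 2 or more METTL7A lists of any antibody 198 of 280 had no wild-type peak (70.7%), and of those in a single METTL7A list 4101 of 4477 (91.6%). The MYC-tag shares of the 2 directions lie within each other's intervals.

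Sharing of positions among the wild-type lists was itself low. The resistant IgG and resistant MYC-tag lists shared 246 positions, which is 10.5% of the former's 2351 and 9.72% of the latter's 2531. The parental and resistant IgG lists shared 152, or 11.2% of 1358 and 6.47% of 2351. The parental IgG and MYC-tag lists shared 88 (6.48% of 1358 and 10.6% of 829). Between wild-type lists and METTL7A MYC-tag lists the shared positions made up 2.55% to 6.27% of the wild-type list. The 2 METTL7A MYC-tag lists shared 270 positions, 13.5% of the parental 1994 and 9.27% of the resistant 2912. The METTL7A IgG lists held only 65 (parental) and 71 (resistant) positions and shared 0 to 2 with any wild-type list, at most 3.08% and 2.82% of their own. With the same wild-type list, parental IgG, the parental and resistant METTL7A MYC-tag lists shared 3.16% and 2.85% of theirs.

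The second question was which wild-type libraries carried the members. Both antibodies were represented at 408 of the 529 positions (77.1%, 73.3 to 80.6), IgG alone at 93 (17.6%) and MYC-tag alone at 28 (5.29%). The rule fixes much of this, since 4 of the 6 pairs of wild-type lists join both antibodies and any 3 lists hold both. Among the 57 recurrent positions with a METTL7A peak, 37 had both antibodies (64.9%, 51.1 to 77.1), 13 IgG alone (22.8%) and 7 MYC-tag alone (12.3%). The difference between the sets was not tested.

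By cell state, 285 members had peaks in both parental and resistant lists (53.9%, 49.5 to 58.2), 184 in resistant lists only (34.8%) and 60 in parental lists only (11.3%). With a METTL7A peak the numbers were 40 (70.2%, 56.6 to 81.6), 15 (26.3%) and 2 (3.51%). As with the antibodies, the rule fixes much of these shares. Most pairs of wild-type lists join both cell states, and any larger set of lists holds both. The largest single combination of the members was resistant IgG with resistant MYC-tag (184 positions), followed by both IgG lists (93), parental IgG with resistant MYC-tag (61) and both parental lists (60). Both MYC-tag lists without IgG accounted for 28. The resistant lists are also the longest wild-type lists, and the part of list length in these counts was not tested.

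**Figure D2:**
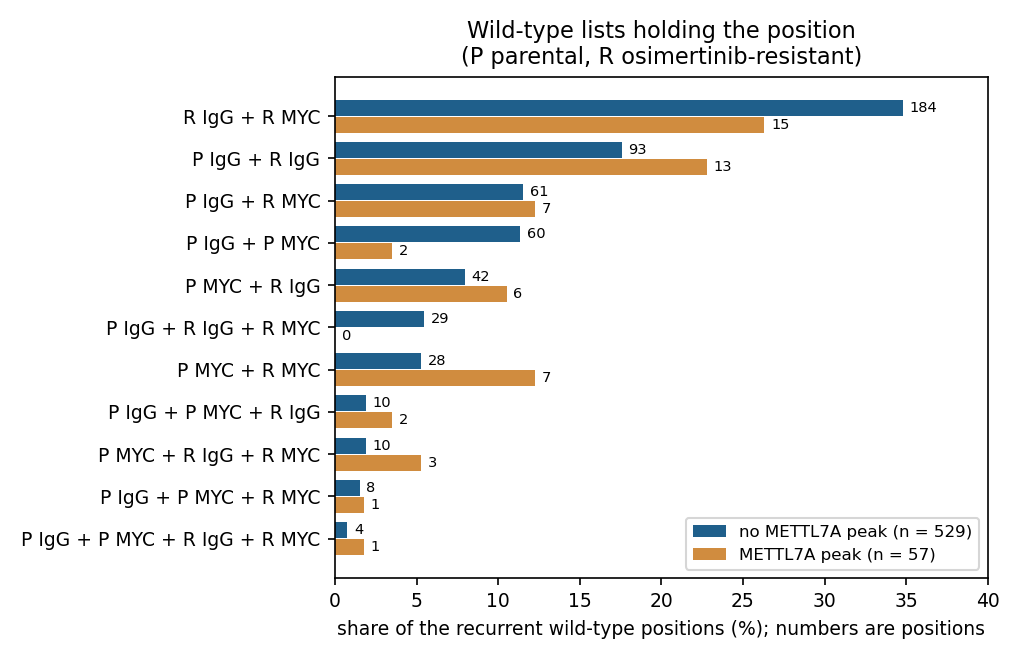
Bars give the percentage of recurrent wild-type positions held by each combination of the 4 wild-type lists (P parental, R resistant), for the 529 positions without and the 57 with a METTL7A peak, and the numbers beside the bars are positions. Resistant IgG with resistant MYC-tag is the longest bar of both sets, and both MYC-tag lists alone hold 28 and 7 positions.

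Member positions differed widely in height. The highest wild-type peak of a position, pooled over lists, had a median −log10 p of 5.19 over the members (3.05 to 13.3) and 5.10 over the recurrent positions with a METTL7A peak (3.13 to 20.2). Both are the highest of 2 or more peaks and are not set against positions with a single peak. Within each list the members' median height was 4.08 in parental IgG, 4.67 in parental MYC-tag, 4.67 in resistant IgG and 4.56 in resistant MYC-tag. Peaks at positions of a single wild-type list had medians of 3.70, 3.77, 4.35 and 3.98 in the same order. Member peaks had to overlap a peak of another list, which wider peaks do more easily. The part of this rule in the members' heights was not tested. Peaks at positions with a METTL7A peak had medians of 4.76, 5.28, 4.36 and 4.34, above the members in both parental lists and below them in both resistant ones. None of these differences was tested.

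Of the 1127 member peaks 10 were reproducible (0.887%), with 3 in parental IgG, 1 in parental MYC-tag, 2 in resistant IgG and 4 in resistant MYC-tag. The share was 26 of 7079 (0.367%) over all wild-type peaks outside the regions left out, 12 of 5827 (0.206%) at positions in a single list and 4 of 125 (3.20%) at recurrent positions with a METTL7A peak. The members' share was above that of all peaks and below that of recurrent positions with a METTL7A peak, and neither difference was tested. The 10 peaks lay at 8 positions, 4 of them on chromosome 8. Among the 57 positions with a METTL7A peak, 3 held a reproducible wild-type peak.

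**Figure D3:**
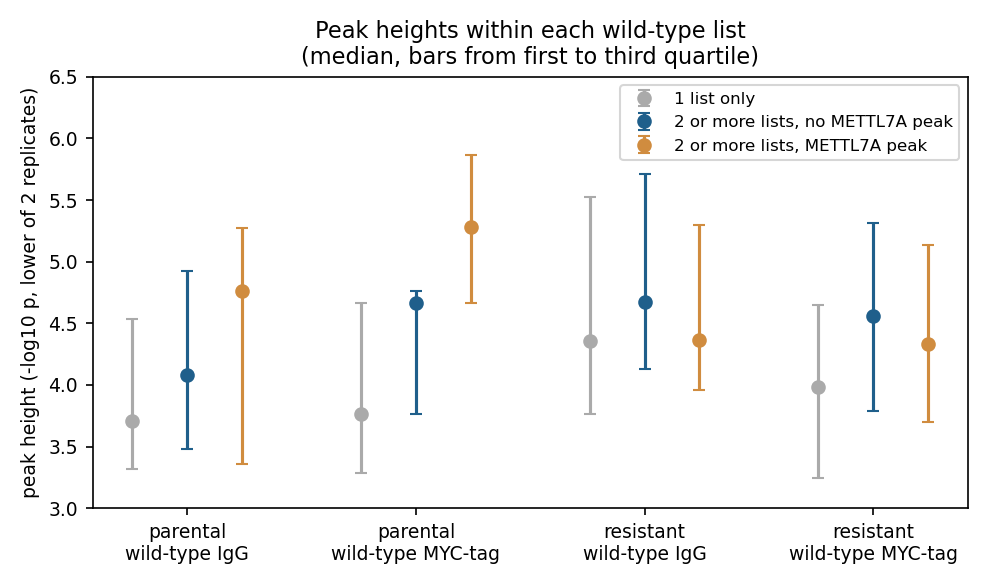
Points are median peak heights (−log10 p, lower of 2 replicates) in each wild-type list, with bars from the first to the third quartile, for positions in 1 wild-type list, for the members and for recurrent positions with a METTL7A peak. The members' medians run from 4.08 to 4.67 and lie above those of single-list positions in all 4 lists. Member peaks had to overlap a peak of another list, and the part of this rule in their heights was not tested.

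Many member peaks had exactly the same height as other peaks of their list. Heights shared by 10 or more peaks of a list were carried by 205 of 266 member peaks in parental IgG (77.1%), 114 of 162 in parental MYC-tag (70.4%), 222 of 374 in resistant IgG (59.4%) and 198 of 325 in resistant MYC-tag (60.9%). Over all peaks outside the regions left out the shares were 81.4%, 75.7%, 50.2% and 78.0%. In the resistant MYC-tag list 17.9% of peaks stood at 3.24, and in the parental IgG list 16.6% stood at 3.70. Heights at this level thus move in steps, and small differences between members carry little information.

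The 2 replicates of a list ranked peaks with little relation to each other, among the members as among all peaks. Over the members Spearman's correlation between them was 0.10 in parental IgG (n = 266), 0.07 in parental MYC-tag (162), 0.01 in resistant IgG (374) and 0.08 in resistant MYC-tag (325), over peaks selected for being matched in both. Over all peaks outside the regions left out it was 0.07, 0.08, 0.06 and 0.05 in the same order. The second replicate of the file was the higher one at 65.4%, 69.8%, 72.2% and 42.8% of member peaks, so the lower value came mostly from the first replicate in 3 of the lists. Heights of 1 position in 2 lists were also weakly related. Over the 6 pairs of lists the Spearman correlation lay between −0.08 (parental MYC-tag with resistant IgG, n = 66) and 0.21 (parental IgG with parental MYC-tag, n = 82), and for resistant IgG with resistant MYC-tag it was −0.01 (n = 227). These points share their libraries and come without a test.

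Summits of the peaks at a member lay near each other, which the rule largely sets, since a member needs peaks that overlap. The median distance between summits at a member ran from 144 bp (resistant IgG and resistant MYC-tag) to 180 bp (parental IgG and resistant MYC-tag). At recurrent positions with a METTL7A peak it ran from 127 bp (both MYC-tag lists, n = 12) to 317 bp (both parental lists, n = 6). In 53.9% to 64.0% of members the summits of a pair of lists lay within 200 bp. Median widths of member peaks were 662 bp in parental IgG, 760 bp in parental MYC-tag, 749 bp in resistant IgG and 710 bp in resistant MYC-tag, against 569, 574, 581 and 570 bp at single-list positions. A wider peak meets another more easily, so width is partly set by the rule.

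Of the 529 members, 4 had a peak in all 4 wild-type lists. The start of JPH1, which encodes a junctophilin that ties the endoplasmic reticulum to the cell membrane (chr8:75232452-75234136), had heights of 7.19 in parental IgG, 4.46 in parental MYC-tag, 13.3 in resistant IgG and 3.15 in resistant MYC-tag. Both IgG peaks ranked high in their lists (percentiles 97.4 and 99.1), the MYC-tag peaks lower (51.3 and 13.8), and both IgG peaks were reproducible (global IDR 0.0190 and 0.0376). In resistant IgG the replicates gave 13.3 and 19.3. A further member inside JPH1 (chr8:75227258-75228016) had 5.74 in resistant IgG and a reproducible 10.1 in resistant MYC-tag. The nearest METTL7A peak lay 28079 bp from the first position, in the resistant MYC-tag list.

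BCL2L11 encodes BIM, a death-promoting BCL-2 family protein known for its part in killing of EGFR-mutant cells by EGFR inhibitors. Its start (chr2:111877865-111878884) had heights of 3.32 in parental IgG, 3.47 in parental MYC-tag, 4.13 in resistant IgG and 4.63 in resistant MYC-tag. All 4 were modest, at percentiles 23.3, 31.6, 34.5 and 64.0 of their lists, and the lowest global IDR was 0.714. The replicates were unequal, since those of the resistant MYC-tag peak were 4.63 and 9.18 and those of the parental MYC-tag peak 3.47 and 9.49. The nearest METTL7A peak was 313194 bp away.

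The start of ASPH, an aspartate hydroxylase of the endoplasmic reticulum (chr8:62626547-62627446), had 4.28 in both parental lists, 4.00 in resistant IgG and 4.73 in resistant MYC-tag. Their percentiles were 59.8, 45.8, 27.5 and 77.3. The last of the 4 positions lay just beyond the region left out around EGFR (chr7:57485106-57486364), where no gene was named, with 5.10, 3.86, 6.42 and 6.49 in the same order. The nearest METTL7A peak was 10838 bp from it and had a height of 10.7 in the parental MYC-tag list.

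Of the 57 members in 3 wild-type lists, the combination of both IgG lists with resistant MYC-tag was the most frequent, at 29. The highest raw value among the 57 was at the start of SYDE2 (chr1:85665972-85667727). Its heights were 6.94 in parental IgG, 13.3 in resistant IgG, and 11.1 and 6.38 for 2 separate peaks in resistant MYC-tag. The resistant IgG peak and the higher MYC-tag peak were both reproducible (global IDR 0.0418 and 0.0230), and parental MYC-tag had none there.

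CAV1 encodes caveolin-1, the coat protein of caveolae at the cell membrane. At its start (chr7:116164705-116167033) the heights were 6.29 in parental IgG, 11.7 in resistant IgG and 4.57 in resistant MYC-tag. Their percentiles were 94.9, 98.7 and 62.9, and the replicates of the resistant MYC-tag peak lay far apart, at 12.6 and 4.57. The parental IgG peak (chr7:116166185-116166690) overlaps both resistant peaks and runs past the end of the resistant IgG peak at 116166478. The nearest METTL7A peak was 125557 bp away.

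PIK3R1 encodes the p85 alpha regulatory subunit of phosphoinositide 3-kinase, which acts downstream of EGFR. Its start (chr5:67510809-67512562) had 10.5 in parental IgG, 7.02 in resistant IgG and 4.47 in resistant MYC-tag. The parental IgG peak had the lowest global IDR of all members (0.0130), with replicates at 10.5 and 11.3, and no parental MYC-tag peak was matched. The nearest peak of a METTL7A list lay 4442733 bp away, the farthest among the named positions, and was a resistant METTL7A IgG peak of height 3.13.

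Other gene starts in 3 lists had lower peaks. At LEMD2, an inner nuclear membrane protein gene (chr6:33756081-33757093), heights were 4.39 in parental MYC-tag, 5.81 in resistant IgG and 7.74 in resistant MYC-tag. At BTG3, an antiproliferative gene (chr21:18984466-18985925), they were 5.95, 4.95 and 6.63 in the same order. Resistant MYC-tag peaks were at percentiles 97.0 and 94.3, the resistant IgG peaks at 77.9 and 60.1, and the parental MYC-tag peaks at 48.8 and 87.6. The replicates of the resistant IgG peak at BTG3 were 4.95 and 26.6, against 10.7 and 6.63 in resistant MYC-tag.

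SMAD5 encodes a transcription factor of bone morphogenetic protein signalling. Its start (chr5:135468421-135469176) had 3.45 in parental IgG, 6.44 in resistant IgG and 3.83 in resistant MYC-tag. XKR8, a lipid scramblase gene (chr1:28286376-28287123), had 3.54, 7.29 and 3.24 in the same lists. Resistant IgG peaks were at percentiles 84.8 and 91.0, and no other peak of these positions passed 41.1. ATP11B, a phospholipid flippase gene (chr3:182511299-182512019), had 6.94 in parental IgG, 4.67 in parental MYC-tag and 5.05 in resistant MYC-tag. ADCY8, an adenylyl cyclase gene (chr8:132051702-132054574), had 5.06 in parental IgG, 4.85 in resistant IgG and 6.99 in resistant MYC-tag. The summits of these ADCY8 peaks lay apart, at 132052217, 132052645 and 132053509 in the same order.

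A position inside a gene was also among the higher ones in 3 lists. ITPK1, an inositol phosphate kinase gene (chr14:93407845-93408676), had 6.29 in parental IgG, 5.24 in resistant IgG and 5.85 in resistant MYC-tag. The ITPK1 position was 1 of only 2 named positions with a METTL7A peak within 10 kb, at 705 bp in the parental MYC-tag list (height 4.95). The 4 unnamed positions of this group, on chromosomes 5, 16, 17 and 22, had highest values of 9.06, 7.28, 6.46 and 7.02.

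Among the 468 members in 2 lists, the 10 with the highest raw heights were named. GXYLT1, a glycosyltransferase gene (chr12:42537998-42538902), had 3.39 in parental MYC-tag and 12.7 in resistant IgG. COCH, the cochlin gene (chr14:31343384-31344275), had 3.47 and 9.33 in the same lists. At both the IgG peak ranked high in its list (percentiles 98.9 and 96.6) and the MYC-tag peak low (24.8 and 31.6).

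PRKACB encodes a catalytic subunit of protein kinase A. Its start (chr1:84543326-84544318) had 10.7 in resistant IgG and 4.56 in resistant MYC-tag. CACHD1, a gene related to calcium channel subunits (chr1:64935350-64936692), had 4.05 in resistant IgG and a reproducible 11.9 in resistant MYC-tag. MDFIC, a gene for a regulator of transcription factors (chr7:114561864-114562711), had 6.23 and a reproducible 10.3 in the same lists. The IgG peak ranked higher in its list at PRKACB and the MYC-tag peak at CACHD1 and MDFIC, and the replicates of the CACHD1 IgG peak were 4.05 and 24.2.

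The RDH10 start, at a retinol dehydrogenase gene (chr8:74206075-74207968), was the only one of the 29 with peaks in parental lists alone. Heights there were 3.68 in IgG and a reproducible 10.4 in MYC-tag, with replicates of 3.68 and 12.8 in IgG. Inside TBX2, a T-box transcription factor gene (chr17:59482384-59483473), heights were 9.43 in resistant IgG and 4.25 in resistant MYC-tag. Inside NECAB3 (chr20:32254549-32255907) they were 4.70 in parental IgG and 9.50 in resistant IgG, at percentiles 72.4 and 97.1 of their lists. The remaining reproducible position, on chromosome 8 with no gene named (chr8:102137906-102139623), had 7.44 in parental IgG and 4.65 in resistant MYC-tag.

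**Figure D4:**
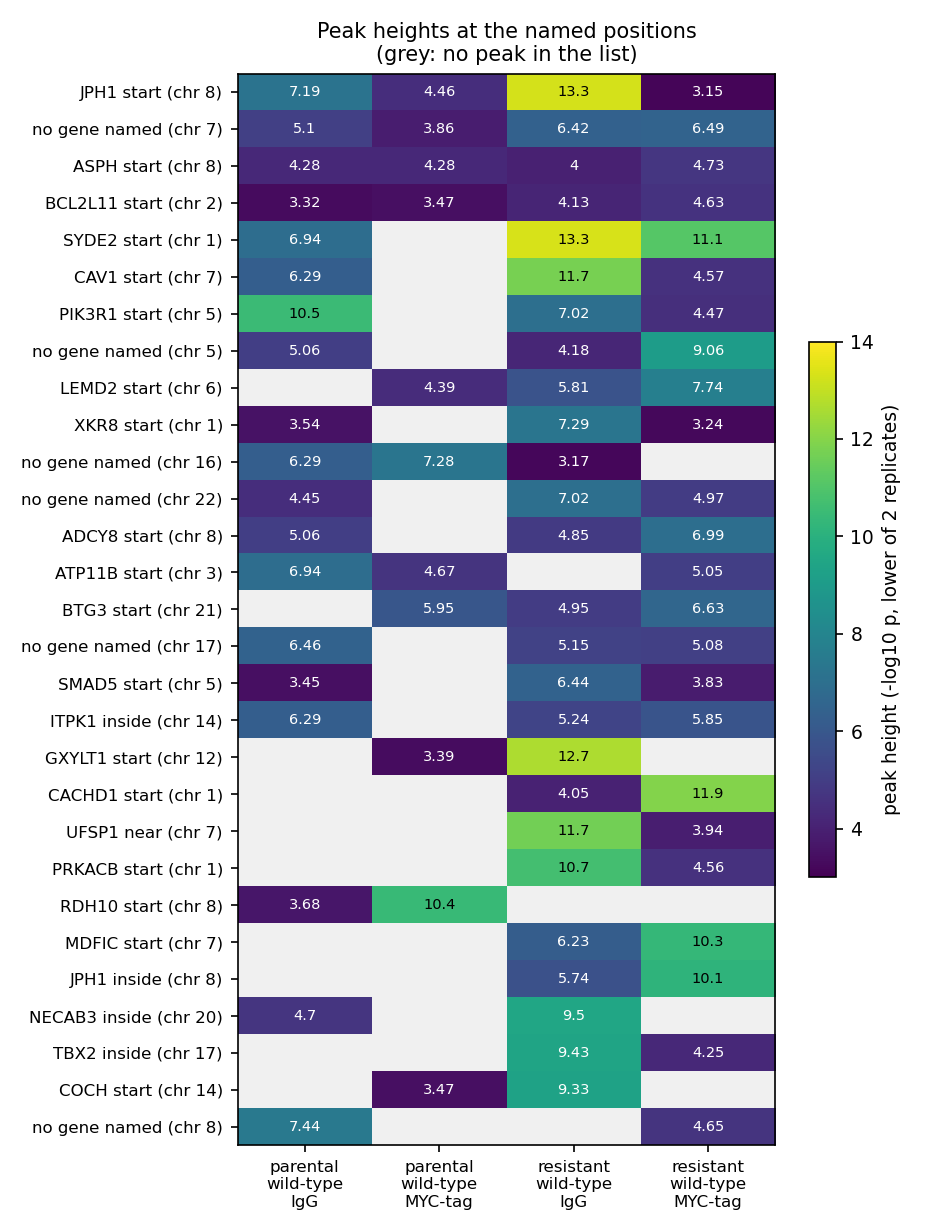
Rows are 29 named member positions, columns the 4 wild-type lists, and each number is the peak height (−log10 p, lower of 2 replicates), with grey where the list has no peak and the higher value where it has 2. The highest raw values, 13.3 at the starts of JPH1 and SYDE2, are in the resistant IgG list, and parental MYC-tag is the emptiest column.

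At the edge of the rule, the member nearest to a METTL7A peak lay across UFSP1, a gene for a UFM1-specific protease between SRRT and ACHE (chr7:100486292-100488042). It had 11.7 in resistant IgG and 3.94 in resistant MYC-tag, and a resistant METTL7A MYC-tag peak of 3.02 lay 148 bp away. Of the members, 8 had a METTL7A peak within 500 bp (1.51%) and 22 within 1000 bp (4.16%). These shares are near those of the 5423 single-list positions without a METTL7A peak (1.66% and 3.15%). Just outside the rule, METTL7A peaks at the 57 other recurrent positions had a median highest height of 5.39 (3.34 to 16.2), and 9 of the 57 were under 4. The only position in all 4 wild-type lists with a METTL7A peak (chr8:59465321-59466186) reached 11.2 in wild-type cells and 6.34 in the parental METTL7A MYC-tag list.

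Distances from members to METTL7A peaks were near those of single-list positions. The median distance to the nearest METTL7A peak was 90084 bp, 51.4% of members had one within 100000 bp and 87.5% within 1000000 bp. For the 5423 single-list positions without a METTL7A peak the median was 101140 bp and the shares were 49.7% and 86.1%. In bins of 5 Mb, 447 of the 548 bins with a position of a single wild-type list also held a METTL7A position (81.6%). Of the 270 bins with a member 250 did (92.6%), and 24 members lay in the other 20 bins. The difference between the bin shares was not tested. Counted by position, bins with a METTL7A position held 95.5% of members, near the 94.1% of all positions in a single wild-type list.

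Members were on 23 chromosomes. Another member lay within 10 kb of 19 of them (3.59%) and within 100 kb of 75 (14.2%). Spacing was not counted for another set, so no clustering or spread is read from it. Chromosomes 1, 14, 2 and 7 held the most, with 61, 49, 46 and 44. Chromosome 14 held 9.26% of members (6.93 to 12.1), 5.67% of positions in a single wild-type list and 7.80% of METTL7A positions. Chromosomes 11 and 12 each held 4.91% of members (3.24 to 7.12), against 6.75% and 5.96% of single-list positions and 7.17% and 7.97% of METTL7A positions. Chromosome 19 held 1.51% of members (0.655 to 2.96), 2.99% of single-list positions and 1.26% of METTL7A positions. These chromosomes were picked after the values were seen, and the differences were not tested. Bins with the most members were 16:85-90 Mb (14 members), 9:135-140 Mb (11) and 14:105-110 Mb (10). These bins also held 187, 125 and 64 METTL7A positions, so they did not lack METTL7A peaks as a whole.

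The missing share also varied by chromosome. Of the 36 recurrent wild-type positions of chromosome 8, 26 lacked a METTL7A peak (72.2%), against 95.3% of 64 on chromosome 1, 97.9% of 47 on chromosome 2 and 96.1% of 51 on chromosome 14. Lower shares were seen on chromosome 21 (57.1% of 7) and chromosome 13 (71.4% of 7), where positions are few. Chromosome 8 held 10 of the 57 positions with a METTL7A peak (17.5%) and 4.91% of the members. Chromosome 8 was picked after the values were seen, and the difference was not tested.

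**Figure D5:**
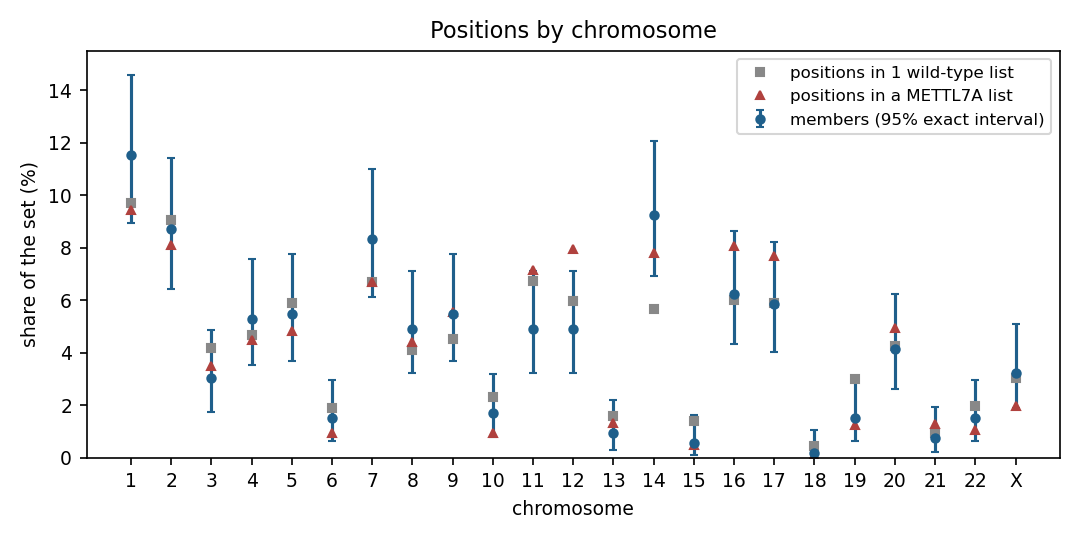
The y axis gives the percentage of each set on each chromosome, for the 529 members with exact 95% intervals, for positions in 1 wild-type list and for positions in a METTL7A list. Members follow the other sets on most chromosomes. Chromosome 14, picked after the values were seen, holds 9.26% of members, 5.67% of single-list positions and 7.80% of METTL7A positions. Picked likewise, chromosomes 11 and 12 each hold 4.91% of members, against 7.17% and 7.97% of METTL7A positions, and chromosome 19 holds 1.51%, against 2.99% of single-list positions.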

How the data were processed

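Peak lists from 16 ChIP samples in 8 groups of 2 were used, and 8 input samples have no list of their own among them. Per the submitters' processing notes, the tools were MACS2 2.2.7.1, Bowtie2 2.4.2, bedtools 2.30, deepTools 3.5.1, SAMtools 1.16, Trimmomatic and FastQC, and the build was GRCh37, without roles or order. The sources used here give no control library for peak calling, filters or IDR version. Heights and global IDRs are −log10 values deposited by the authors, in lists of 20 columns without a header, and summit offsets are in bases. Read totals are not in the lists, so depth and the precision it gives are unknown.

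Peaks were merged at 1 bp with Python 3.11.15 and pandas 2.3.3, tested on simulated intervals and checked against bedtools 2.31.1. Intervals are exact (Clopper-Pearson, scipy 1.17.1) at 95%. No test was run, because each group has 1 list and the rule used presence and absence. The members, lists and tests were chosen with earlier results of these data known. The 4 height groups, the 5 Mb bins, the shared-height minimum of 10 peaks, the share inside the regions left out, the promoter windows and motifs, and the single value that stands for each result in the alternatives were chosen after exploring the data. Named positions were all members in 4 lists, the highest 15 in 3 lists, the highest 10 in 2 lists and all reproducible ones, of which 1 position is not reported here. The naming rule asked for a GRCh37 gene source. None was used, so gene names rest on general knowledge, were checked only for their chromosome in RefSeq's GRCh38.p14 table, and the planned gene lists were not counted.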

Additional observations from a re-analysis of the deposited data

How the results depend on the processing

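The share of recurrent wild-type positions without a METTL7A peak (90.3%) lay between 66.7% and 94.2% over 17 alternatives. It left its interval with peaks up to 1000 bp apart merged (84.2%), with wild-type peaks of 5 or more in both replicates (86.9%), with METTL7A peaks of 5 or more (94.0%), without the parental or the resistant METTL7A MYC-tag list (93.0% and 94.2%), with the regions left out kept (76.5%), and at a global IDR of 0.05 in all lists (66.7%, 2 of 3 positions). The number of members depends on the threshold much more than their share. It fell from 529 of 586 recurrent positions to 73 of 84 with wild-type peaks of 5 or more in both replicates, to 61 of 68 with 3 or more wild-type lists and to 2 of 3 at a global IDR of 0.05. It was 315 of 350 without the parental IgG list, 209 of 231 without the resistant IgG list and 256 of 284 without the resistant MYC-tag list. Using 1 replicate's height alone (5 or more) gave 153 to 235 members of 174 to 260, missing shares of 87.9% to 90.4%, 38.7% to 48.4% in both resistant lists only, 73.2% to 80.4% with both antibodies, 41.2% to 51.9% in both states, median heights of 5.73 to 5.79 and 5 to 7 reproducible positions. With 5 or more in both replicates, 46.6% were in both resistant lists only (34.8% as reported), 43.8% in both states, the median height was 6.31, 5 positions were reproducible and 57.5% had a METTL7A peak within 100 kb. With 3 or more lists the same values were 0, 100% (and 100% with both antibodies), 5.56, 3 and 45.9%, and the first 3 shares follow from asking for 3 of 4 lists. Leaving out both METTL7A IgG lists kept the count at 529. Promoter windows limited to 1 a gene, an alternative chosen after seeing the data, moved the GGGCGG share from 60.9% to 76.9%. No paired analysis was possible because the lists hold only peaks matched in both replicates, so presence has no value per replicate, and their first and second replicate columns carry no replicate number from the labels. Unknown depth limits every absence stated here.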
